A study of Arabidopsis with 12 samples.

Results

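The NAC transcription factor family was taken as every gene of the deposited expression table whose description contains "NAC domain", "NAC (No Apical Meristem)" or "NAC-like", which gave 104 of 33559 *Arabidopsis thaliana* genes. The phrases stood in 80, 23 and 1 descriptions. The measurements came from whole seedlings of 14 days of the wild type (WT, Col-0) and of *aph-1* (Salk_120974), a single T-DNA insertion line with the insertion in the promoter of *APH* (AT3G44620), each either untreated (control) or given abscisic acid (ABA), labelled as 50 micromole, for 6 h. Each of the 4 groups held 3 RNA-seq libraries, and all groups were grown on Murashige and Skoog medium with sucrose. The table gives 1 value per gene and group in FPKM, fragments scaled to the length of the gene and to the library's total, so the spread between the libraries of a group is unknown and no difference below has an error, a test or a replicate check. Because of the scaling by length, levels can be set side by side between genes as well as between groups. A gene is said to have risen, fallen, or been higher or lower in the other genotype where its FPKM differed at least 2-fold and reached 1 FPKM in at least 1 of the 2 groups compared, and for genes short of this only the values are given.

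NAC proteins are transcription factors found in plants, named after NAM of petunia and ATAF and CUC of Arabidopsis. They bind DNA through a conserved domain at the amino end, through which they also pair with each other, and a variable carboxyl end activates or represses transcription. The family is known for roles in the responses to ABA, drought and salt, in leaf senescence, in the secondary walls of xylem, and in the boundaries between organs and the cap of the root. Its ABA-responsive core, the SNAC-A genes, includes *RD26*, *ANAC019* and *ANAC055*, which bind promoters of drought-induced genes.

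In the series as a whole, *APH* had 95.9 FPKM in WT control, 83.6 in *aph-1* control, 99.0 in WT ABA and 86.9 in *aph-1* ABA. The study describes a fused T-DNA and *APH* transcript in *aph-1*, so this value over the gene does not check the genotype. Leaf and root genes were present in every group, with *RBCS1A*, a Rubisco subunit, at 3952 to 12404 FPKM and *CASP1* of the root endodermis at 20.0 to 29.5. The flower genes *AG* and *AP3* stayed at or below 0.969 FPKM and the seed storage genes *CRA1* and *CRU3* at or below 0.208. In such bulk tissue, fewer cells of a type and less RNA per cell cannot be told apart.

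The family's summed level was 773 FPKM in WT control and 2522 in WT ABA, and 655 in *aph-1* control and 2371 in *aph-1* ABA. That is 3.26-fold more with ABA in WT and 3.62-fold more in *aph-1*. Its share of the FPKM of all genes went from 0.0707% to 0.225% in WT and from 0.0637% to 0.213% in *aph-1*. The gain came with more members at high levels and not with more members at 1 FPKM. In WT, 1 member reached 100 FPKM without ABA and 6 with it, while the number at 1 FPKM or more went from 64 to 59. The 5 highest members in WT control were *VNI2*, *ANAC102*, *ATAF2*, *ANAC027* and *ANAC041*, with 38.2% of the family's sum. With ABA they were *RD26*, *VNI2*, *ANAC102*, *ANAC032* and *ANAC019*, with 47.4%. *ANAC027*, the fourth without ABA, had 37.8 FPKM in WT control, 26.8 in *aph-1* control, 40.8 in WT ABA and 36.7 in *aph-1* ABA. *ANAC041* had 34.5, 28.2, 48.3 and 36.7 in the same order, which is the order of groups used for every set of 4 values below.

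Of the 104 members, 67 reached 1 FPKM in at least 1 group, 37 did not, and 10 of those 37 were listed at 0 in all 4 groups. The last 10 included *NST2*, a regulator of secondary wall formation. Another 5 members, *ANAC006*, *AT1G60340*, *ANAC049*, *ANAC067* and *ANAC077*, were above 0 in 1 group only, each at or below 0.0340 FPKM. *VND5* at 0.785 to 0.946 FPKM and *CUC1* at 0.637 to 0.858 were the members nearest below the minimum. The share of members at 1 FPKM or more, 61.5% in WT control and 56.7% in WT ABA, was near that of all genes, 58.4% and 57.2%.

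ABA and no ABA were compared first in WT, over the 66 members that passed the minimum. Of these, 29 rose (43.9%), against 11.9% of all genes that passed it, and 9 fell (13.6%), against 13.4%. Of the 66, 9 passed through 1 of the 2 groups only, 2 through the ABA group and 7 through the control group, and such genes differ more readily than the others. Among the 7 are *SMB*, *CUC3*, *BRN2*, *AT3G12977*, *ANAC048* and *ANAC096*, which all fell. The median log2 ratio was 0.89 over the members and -0.00 over all 20094 genes. The log2 ratio was above 0 in 48 members and below 0 in 18 (27.3%), against 50.2% of all genes below 0.

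Among the members that passed the minimum, the 3 largest log2 ratios belonged to SNAC-A genes. Of the 7, 6 rose in WT and none fell, against 11.9% and 13.4% of all genes. The median log2 ratio of the 7 was 2.81. SNAC-A is introduced above as the ABA-responsive core, and all role lists were chosen with earlier results of these data known. Counts and medians of these lists are therefore not independent support for roles of their genes. *ANAC019*, a drought- and ABA-responsive activator, had 5.24 FPKM in WT control, 1.74 in *aph-1* control, 175 in WT ABA and 153 in *aph-1* ABA. Both ABA values stood far above both control values, by 33.3-fold in WT and 87.8-fold in *aph-1*. *RD26* (ANAC072), named for its response to dehydration, had 13.3, 8.42, 338 and 310.3 FPKM, or 25.3-fold more with ABA in WT. It ranked 18 among the members in WT control and 1 in WT ABA, and went from rank 22 to 1 in *aph-1*. *ANAC032*, a regulator in stress and senescence, had 8.76, 7.06, 188 and 199 FPKM, a 21.4-fold rise in WT.

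The other SNAC-A genes began at very different levels. *ANAC055*, which responds to drought, ABA and jasmonate, had 2.70, 1.34, 19.0 and 21.4 FPKM and rose 7.02-fold in WT. *ATAF1*, an ABA- and drought-responsive regulator, had 20.6, 17.6, 99.5 and 106 FPKM, with log2 ratios of 2.27 in WT and 2.59 in *aph-1*. *ANAC102*, known from low oxygen and light stress, had 53.9, 41.3, 236 and 238 FPKM, with log2 ratios of 2.13 and 2.53. *ATAF2*, responsive to wounding and pathogens, had 51.1, 43.7, 88.3 and 94.4 FPKM, and its log2 ratio of 0.79 in WT did not reach 2-fold. The 3 SNAC-A genes that were highest without ABA, *ANAC102*, *ATAF2* and *ATAF1*, had the 3 smallest ratios of the list. The untreated value is the divisor of the ratio, so level and ratio are linked by construction. Summed, the 7 genes held 156 FPKM in WT control and 1143 in WT ABA, or 20.1% and 45.3% of the family. They accounted for 56.5% of the family's increase in WT and 58.3% in *aph-1*.

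**Figure D1:**
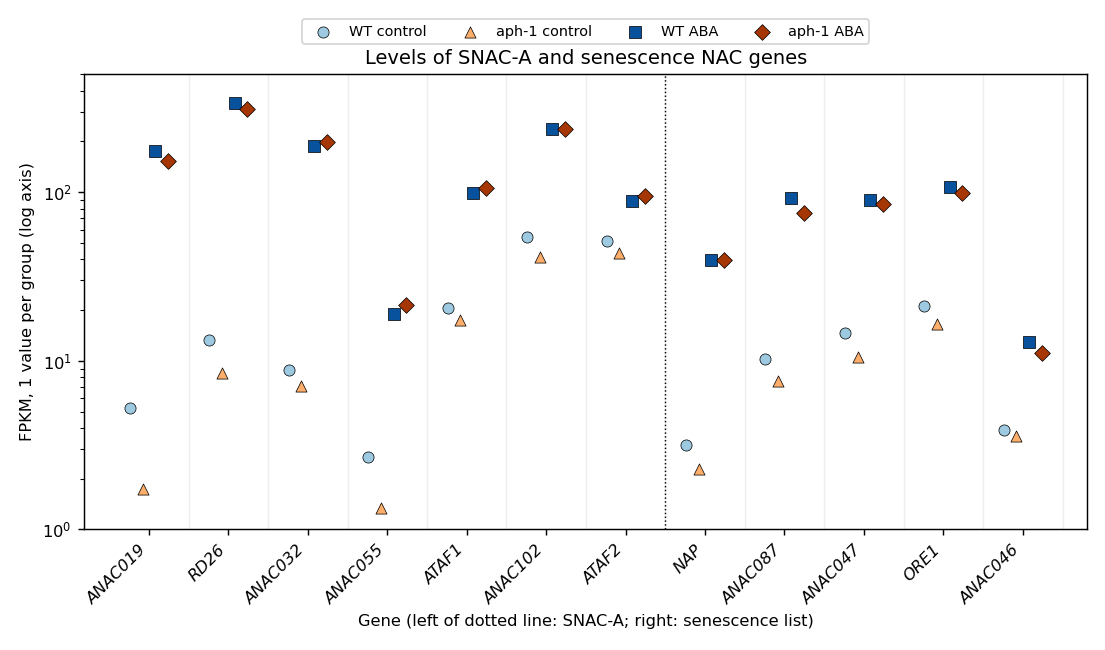
FPKM (log axis, 1 value per group, no error bars since there is 1 value) of the SNAC-A genes on the left of the dotted line and 5 senescence genes that rose on the right, with a point for each of the 4 groups. The ABA points of *ANAC019*, *RD26* and *ANAC032* lie at least 21.4-fold above the control points of the same genotype, and in all 12 genes both ABA points lie above both control points.

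Of the 12 NAC genes listed for senescence, 11 passed the minimum. With ABA in WT 7 rose, against 11.9% of all genes, and *NARS1* fell, against 13.4%. The median log2 ratio of the 11 was 1.13. *NAP*, a regulator of leaf senescence, had 3.18 FPKM in WT control, 2.27 in *aph-1* control, and 39.8 in both WT ABA and *aph-1* ABA, rises of 12.5-fold and 17.5-fold. *ANAC087*, known from programmed cell death, had 10.2, 7.60, 92.7 and 75.3 FPKM, and *ANAC047*, from senescence and leaf movement, had 14.5, 10.5, 90.4 and 85.0. *ORE1* (ANAC092), which promotes age-dependent cell death, had 21.2, 16.4, 108 and 98.4 FPKM, with log2 ratios of 2.35 and 2.58. *ANAC046*, an activator of chlorophyll breakdown, had 3.86, 3.57, 13.0 and 11.1 FPKM. In all 5 of these genes both ABA values stood above both control values. *VNI2*, an ABA-responsive repressor of xylem vessel formation, was the most abundant member without ABA, with 118, 89.2, 258 and 233 FPKM.

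The seed coat regulators *NARS1* and *NARS2* moved in opposite directions. *NARS2* had 6.01, 4.55, 12.1 and 10.1 FPKM, just past the threshold in WT at a log2 ratio of 1.01. *NARS1* had 6.28, 5.46, 2.95 and 3.02 FPKM, with log2 ratios of -1.09 in WT and -0.85 in *aph-1*. *ANAC016*, which promotes senescence, stayed at 1.26 to 1.85 FPKM, and *JUB1*, a longevity factor, is described with the genotypes below.

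The 8 membrane-bound members, which are made as anchored precursors and released to enter the nucleus, all passed the minimum. Of these, 5 rose with ABA in WT and none fell, against 11.9% and 13.4% of all genes. The median log2 ratio of the 8 was 1.37. *ANAC013*, which carries a signal from stressed mitochondria to the nucleus, had 8.26, 6.08, 91.0 and 70.1 FPKM, an 11.01-fold rise in WT. *ANAC060*, known from ABA and sugar signalling in seedlings, had 0.168, 0.0845, 3.18 and 2.56 FPKM, so it passed the minimum only through its ABA values. *ANAC053*, an activator of proteasome genes, had 9.73, 8.18, 36.1 and 32.0 FPKM, and *ANAC089* had 7.74, 6.62, 25.1 and 25.8. *ANAC069* rose to a lesser degree, with 12.5, 10.6, 25.8 and 21.2 FPKM. *ANAC078*, a close partner of *ANAC053* in proteasome control, went from 33.3 to 63.8 FPKM in WT, a log2 ratio of 0.94, and lay just below the threshold.

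Of the 5 genes listed for DNA damage and nucleolar stress, 4 passed the minimum. With ABA in WT 2 rose and none fell, against 11.9% and 13.4% of all genes. *ANAC044*, which acts in cell cycle arrest after DNA damage, had 1.46, 1.76, 13.8 and 14.6 FPKM, log2 ratios of 3.24 and 3.05. *ANAC103* had 1.29, 2.17, 5.18 and 5.39 FPKM. *SOG1*, the activator of the plant DNA damage response, had 10.04, 9.41, 8.38 and 8.13 FPKM, so it did not move with *ANAC044*. *ANAC082*, known from nucleolar stress, had 21.6, 23.9, 40.4 and 40.0 FPKM.

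Members with roles in xylem and phloem moved less. Of the 13 listed, 9 passed the minimum, with a median log2 ratio of 0.59 with ABA in WT. Of the 9, 3 rose and none fell, against 11.9% and 13.4% of all genes. *ANAC075*, which acts upstream of the vessel regulator VND7, had 1.12, 1.19, 4.10 and 3.54 FPKM. The vessel regulator *VND2* had 1.37, 1.21, 3.22 and 2.95 FPKM, and *SND3*, of secondary wall formation, had 2.42, 2.20, 5.10 and 4.23. *VND3* went from 1.73 to 3.29 FPKM in WT and stayed below 2-fold. *NAC45*, which acts in the loss of the nucleus from sieve elements, had 1.31, 1.41, 1.98 and 1.65 FPKM.

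The meristem and root cap genes that passed the minimum mostly had lower values with ABA. Of the 8 listed, 5 passed the minimum, with a median log2 ratio of -1.37 with ABA in WT. Of the 5, none rose and 4 fell, against 11.9% and 13.4% of all genes. *BRN1*, a root cap regulator, had 3.69, 2.06, 1.41 and 1.91 FPKM, which is 2.61-fold lower with ABA in WT. Its relative *BRN2* had 1.51, 1.5, 0.465 and 1.04 FPKM, 3.24-fold lower in WT. *SMB*, the third root cap regulator, had 2.17, 1.95, 0.837 and 0.675 FPKM, with log2 ratios of -1.37 and -1.53. The organ boundary gene *CUC3* had 1.20, 1.34, 0.562 and 0.651 FPKM, with log2 ratios of -1.09 and -1.04. *NAC1*, an auxin-responsive gene of lateral root formation, did not fall, with 30.9, 24.1, 38.5 and 35.8 FPKM. All 4 genes that fell lay near the minimum, and *SMB*, *CUC3* and *BRN2* passed it through WT control only, where they are higher. Genes of other root cells also had lower values with ABA, since *CASP1* of the endodermis went from 29.5 to 20.0 FPKM in WT and from 27.1 to 24.5 in *aph-1*. *COBL9* of root hairs went from 3.82 to 2.50 and from 5.11 to 3.30. Leaf genes had lower values with ABA too, *RBCS1A* going from 9613 to 3952 FPKM in WT and from 12404 to 6025 in *aph-1*, and *LHCB1.3*, of the light-harvesting complex, from 8438 to 6364 and from 10585 to 8587. Their part in the falls of the root cap genes was not tested.

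The list of targets of the microRNA miR164, which cuts the transcripts of several NAC genes, holds 6 members, and 4 of them passed the minimum. Of these 4, *ORE1*, *ANAC080* and *ANAC100* rose with ABA in WT and none fell, against 11.9% and 13.4% of all genes. The median log2 ratio of the 4 was 1.96. *ANAC080* had 3.96, 3.41, 15.0 and 13.5 FPKM, and *ANAC100* had 4.04, 3.84, 16.1 and 14.3, nearly the same level in each group. The fourth, *NAC1*, is given above, and the targets *CUC1* and *CUC2* stayed below 1 FPKM.

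The role lists cover 55 members, and 49 are in none of them. Of the 49, 20 passed the minimum in WT, with a median log2 ratio of 0.03. With ABA 4 of the 20 rose and 4 fell, against 11.9% and 13.4% of all genes. *ANAC074* had 2.48, 1.47, 11.6 and 7.18 FPKM. *ANAC003* had 8.89, 7.13, 17.2 and 19.7 FPKM, just below the threshold in WT at a log2 ratio of 0.95. *AT3G12977* had 2.25, 1.95, 0.335 and 0.314 FPKM, 6.70-fold lower with ABA in WT, and *ANAC088* had 14.0, 13.6, 2.43 and 3.32, 5.74-fold lower. *ANAC048* had 3.14, 2.81, 0.889 and 1.03 FPKM, and *ANAC096* had 1.92, 1.69, 0.652 and 0.616. *ANAC088* was the only one of the members that fell in WT to start above 10 FPKM. *LOV1*, which delays flowering, had 17.5, 16.6, 9.86 and 9.66 FPKM, 1.77-fold lower in WT and so short of the threshold. *ANAC094*, with 0.984, 1.13, 0.0752 and 0.0767 FPKM, was 13.1-fold lower in WT but missed the minimum there, and it fell 14.8-fold in *aph-1*. In *aph-1* it passed the minimum narrowly and through the control group only, where it is higher. With a pseudocount of 1 FPKM its log2 ratio there was -0.99, short of 2-fold.

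**Figure D2:**
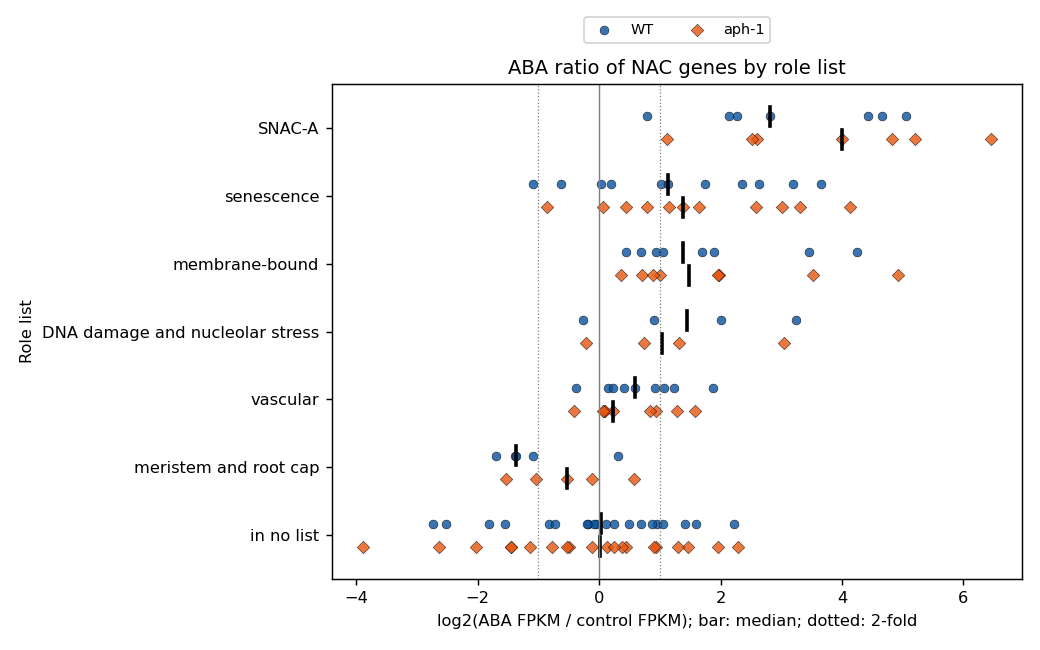
Log2 ratio of ABA over control FPKM of members that passed the minimum, by role list, with circles for WT and diamonds for *aph-1*. There is 1 value per gene and genotype and no error, with bars for the median and dotted lines at 2-fold. *ANAC080* and *ANAC100*, listed only as miR164 targets, are not drawn. The SNAC-A points lie between 0.79 and 6.46, and the meristem and root cap points lie mostly below 0.

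In *aph-1*, 66 members passed the minimum, 7 of them through 1 group only, 1 through the ABA group and 6 through the control group. Of the 66, 29 rose with ABA (43.9%), against 12.2% of all genes, and 8 fell (12.1%), against 11.1%. Among the 6 are *SMB*, *CUC3*, *AT3G12977*, *ANAC096* and *ANAC094*, which all fell, and such genes differ more readily than the others. Over the members the median log2 ratio was 0.86, and over all genes it was -0.02. Over the 67 members that reached 1 FPKM in any group, 27 of the 29 that rose in WT also rose in *aph-1*, which is 93.1% of the list of either genotype. *SND3* and *ANAC050* rose in WT only, and *ANAC003* and *ATAF2* in *aph-1* only, all 4 with log2 ratios of at least 0.79 in both. Counting *ANAC094* in, 7 of the 10 members that fell in WT (70.0%) also fell in *aph-1*, which is 87.5% of the 8 that fell there. No member rose in one genotype and fell in the other. Over these 67 members Pearson's r between the log2 ratios of the genotypes was 0.976, a description across genes, which are not replicates. The overlap and r were not computed over all genes, so whether they are particular to the family is not known.

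**Figure D3:**
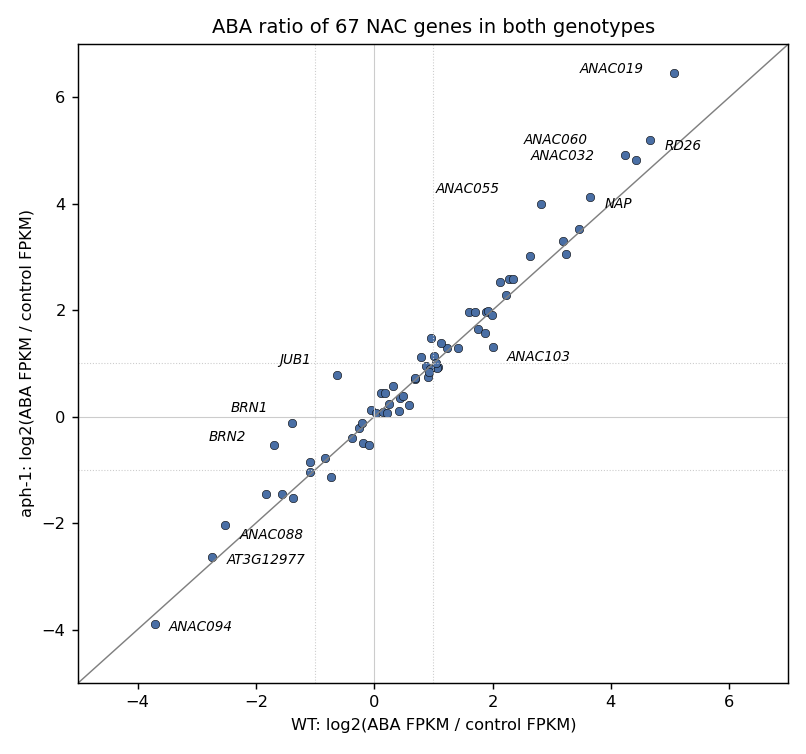
Log2 ratio of ABA over control FPKM in *aph-1* (vertical axis) against that in WT (horizontal axis), with a point for each of the 67 members at 1 FPKM or more in any group, 1 value per axis and no error. The points of *JUB1*, *ANAC019*, *BRN1*, *ANAC055* and *BRN2* lie 1.16 to 1.41 log2 units above the line of equal ratios, farther than those of the other members.

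The genotypes were compared next without ABA, over 65 members, 1 of which passed the minimum through 1 group only. None was higher in *aph-1*, against 0.238% of all genes, and 2 were lower (3.08%), against 0.945%. The lower ones were both SNAC-A genes, *ANAC019* at 5.24 FPKM in WT and 1.74 in *aph-1*, 3.01-fold lower, and *ANAC055* at 2.70 and 1.34, 2.01-fold lower and at the edge of the threshold. The median log2 ratio was -0.19 over the members and -0.05 over all genes, and 48 of the 65 members (73.8%) had a lower value in *aph-1*, against 56.5% of all genes. All 7 SNAC-A genes and all 11 senescence genes that passed the minimum had lower values in *aph-1*, with median log2 ratios of -0.38 and -0.40. Apart from *ANAC019* and *ANAC055*, each of these was by less than 2-fold. *BRN1* (log2 ratio -0.84) and *ANAC074* (-0.75) were the next lower members, and *ANAC103* had the largest ratio the other way, at 1.67-fold higher in *aph-1*. *ANAC028* at 1.18 FPKM in WT and 1.57 in *aph-1*, and *ANAC057* at 1.85 and 2.45, also had higher values in *aph-1*. *ANAC060*, below 1 FPKM in both untreated groups, was not compared.

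*ANAC019* was low without ABA and high with it, and its untreated value was a small share of its ABA value. The untreated value of *ANAC019* was 3.0% of the ABA value in WT and 1.14% in *aph-1*. If 1% of the WT ABA value is taken off the WT control values, *ANAC019* in WT control becomes 3.49 FPKM, still 2.01-fold above *aph-1*, and *ANAC055* becomes 2.51 FPKM, 1.87-fold above *aph-1* and no longer past the threshold. The difference of *RD26* goes from 1.58-fold to 1.18-fold, and that of *ANAC032* turns from 1.24-fold lower in *aph-1* to 1.03-fold higher. *ATAF1*, *ATAF2* and *ANAC102* hardly move, at 1.12-fold, 1.15-fold and 1.25-fold lower in *aph-1*, and the median log2 ratio of the members goes from -0.19 to -0.16. The share of 1% was chosen after the values were seen, and it was taken off WT control only, not off *aph-1* control. The step can therefore only raise the ratio of *aph-1* over WT. Whether the untreated groups differ in this way was not tested.

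With ABA, 61 members were compared between the genotypes. In *aph-1*, 2 were higher (3.28%), against 0.489% of all genes, and none was lower, against 0.319%. Of the 61, 3 passed the minimum through 1 group only, and *BRN2* was one of them, passing through *aph-1*, where it is higher. The higher ones were *BRN2*, at 0.465 FPKM in WT ABA and 1.04 in *aph-1* ABA, 2.23-fold, and *JUB1*, at 1.25 and 2.51, 2.01-fold. Both are weakly expressed and at or near the minimum. Members had a median log2 ratio of -0.10 and all genes one of -0.01, and 44 of the 61 members (72.1%) had a lower value in *aph-1*, against 53.0% of all genes. The SNAC-A genes no longer stood lower, with a median log2 ratio of 0.09 and a range of -0.19 to 0.17. All 8 vascular genes compared had lower values in *aph-1* (median log2 ratio -0.21), and none by 2-fold. *ANAC074*, at 11.6 FPKM in WT ABA and 7.18 in *aph-1* ABA, had the most negative log2 ratio, -0.70.

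**Figure D4:**
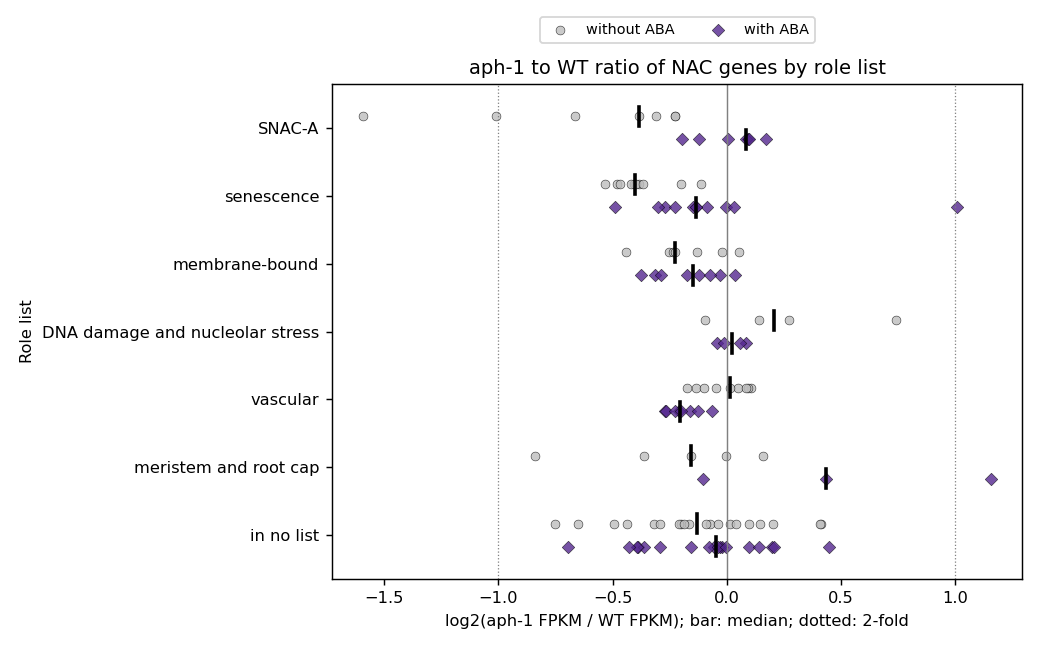
Log2 ratio of *aph-1* over WT FPKM of members that passed the minimum, by role list, without ABA and with ABA. There is 1 value per gene and condition and no error, with bars for the median and dotted lines at 2-fold. *ANAC080* and *ANAC100*, listed only as miR164 targets, are not drawn. Without ABA all 7 SNAC-A points lie below 0, down to -1.59 for *ANAC019*, and with ABA they lie between -0.19 and 0.17.

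The difference between the log2 ratios of ABA over control was taken as *aph-1* minus WT. Its median was 0.05 over the 67 members and 0.04 over all 20136 genes. The difference was above 0 in 42 members. The share above 0 was not computed over all genes, so whether the 42 are particular to the family is not known. The members with the largest differences came to them from different groups. *JUB1* had 1.93 FPKM in WT control, 1.46 in *aph-1* control, 1.25 in WT ABA and 2.51 in *aph-1* ABA, a difference of 1.41, and here the genotypes stood in opposite order with and without ABA. The difference of *ANAC019*, 1.40, came from the untreated groups, since its ABA values were close. *ANAC055* likewise had a difference of 1.18. *BRN2* had a difference of 1.16 that came from the ABA groups alone, since its untreated values were 1.51 and 1.5 FPKM. *BRN1*, at 1.27, had both a lower untreated value and a higher ABA value in *aph-1*. On the negative side, *ANAC103* had a difference of -0.69, from its higher untreated value in *aph-1*. *ANAC099*, with 0.773, 0.559, 1.25 and 0.930 FPKM, had a small difference of 0.041 and passed the minimum only through WT ABA.

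Members that lie next to each other on a chromosome, by the order of genes in RefSeq, make 15 pairs of 26 members. In 6 of the pairs both genes reached 1 FPKM, 5 had log2 ratios of the same sign with ABA in WT, and in 4 both rose. Of the 66 members compared in WT, 48 had a log2 ratio above 0, and pairs of members that are not adjacent were not counted. *NARS2* and *ANAC019* are adjacent and rose with log2 ratios of 1.01 and 5.06. *ANAC050*, *ANAC052* and *ANAC053* lie in a row and rose with ratios of 1.06, 1.41 and 1.89, so their pairs share *ANAC052*. *ANAC055* and *NARS1* are adjacent and moved apart, at 2.81 and -1.09. The pairs *NARS2* and *ANAC019*, and *NARS1* and *ANAC055*, each join a seed coat regulator to a SNAC-A gene, and the seed coat regulator rose in the first pair and fell in the other. In other pairs 1 gene was all but silent, as *ANAC077* at no more than 0.0134 FPKM beside *ANAC078* at 32.9 to 63.8 FPKM. Adjacent members can be copies of each other, and the treatment of reads that match both was not found in the sources used here, so their split is uncertain. *ANAC060* and *ANAC061* lie 31 and 24 protein-coding genes from *APH* on chromosome 3, and *ANAC061* stayed at or below 0.495 FPKM in all groups.

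**Figure D5:**
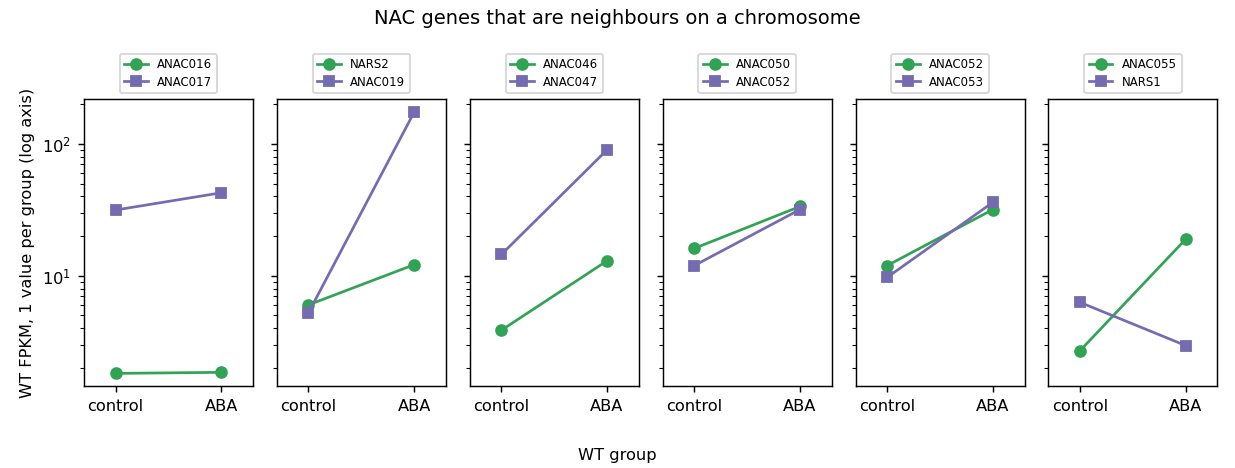
WT FPKM (log axis) without and with ABA for pairs of adjacent NAC genes in which both reached 1 FPKM, 1 panel per pair and 1 value per group with no error. Both genes rise in 4 panels, while *ANAC055* rises and *NARS1* falls in 1.

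Genes known to be bound or controlled by NAC proteins, here called targets, were followed beside the members. Of 19 listed, 18 passed the minimum, and the median log2 ratio with ABA in WT was 2.21. In WT 13 rose, against 11.9% of all genes, and none fell, against 13.4%. The list was chosen with earlier results of these data known, so these counts are not independent support for NAC activity. In *aph-1*, 14 rose, against 12.2% of all genes, the additional target being *MYB46*. *SWEET15* (SAG29), a sugar transporter gene bound by ORE1, had 13.2, 1.90, 1309 and 1319 FPKM, and *HAI1* (SAG113), a phosphatase gene bound by NAP, had 3.26, 1.03, 316 and 277. These 2 were also the targets that were lower in untreated *aph-1*, of 16 compared, against 0.945% of all genes. Both are low without ABA and high with it, as *ANAC019* is. Taking 1% of the WT ABA value off WT control turns both, since *SWEET15* in WT control becomes 0.0958 FPKM and *HAI1* 0.101 FPKM, below their values in *aph-1* control. The WT control value of *SWEET15* was 0.0101 of its WT ABA value and that of *HAI1* 0.0103, so taking off 1% was bound to leave little. *ERD1*, a protease subunit gene bound by ANAC019, ANAC055 and RD26, had 40.5, 40.9, 182 and 161 FPKM, so it did not differ between the untreated genotypes although *ANAC019* and *ANAC055* did. *NCED3*, an ABA synthesis gene bound by ATAF1, had 0.417, 0.463, 9.52 and 10.8 FPKM, and *UGT74E2*, bound by ANAC013, had 7.73, 5.35, 286 and 295. *AOX1A*, the alternative oxidase gene bound by ANAC013 and ANAC017, had 23.5, 16.8, 245 and 210.2 FPKM. The meristem gene *STM*, with 5.82, 5.32, 5.19 and 4.60 FPKM, and the xylem protease genes *XCP1* and *XCP2* did not reach 2-fold in any comparison. With ABA, none of the 18 targets was higher or lower in *aph-1*, against 0.489% and 0.319% of all genes.

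Of the 64 NAC genes in the role lists, 9 are not members because their descriptions hold none of the phrases: *VND1*, *VND4*, *VND6*, *VND7*, *NTL9*, *TIP*, *ANAC014*, *NTM1* and *NTL8*. Counts of the vascular and membrane-bound lists leave them out.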

How the data were processed

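RNA was measured by directional paired-end RNA-seq in 12 libraries, 3 in each of 4 groups. Per the study's methods, the authors trimmed reads with Trimmomatic, aligned them with HISAT to TAIR10, counted them with htseq-count and tested them with edgeR, while the deposited sheet is named after Cuffdiff. The deposited FPKM table holds 1 value per gene and group, and the sources used here do not say how libraries were combined. FPKM as a unit was inferred from the column names and values. The authors' fold changes and calls were not used.

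Members were found by phrase, and groups were compared by the log2 ratio of FPKM with no pseudocount, for genes at 1 FPKM or more in at least 1 group. A gene at 0 in the other group was counted as past 2-fold and left out of the median. Differences between the ABA ratios of the genotypes used genes above 0 in all 4 groups. Differences of at least 2-fold were counted, and the same counts over all genes were given beside them. The members and lists were chosen with earlier results of these data known. Named genes were the 12 largest rises and falls with ABA in WT, all members that differed 2-fold between genotypes or the 5 largest ratios in a direction, the 5 largest differences of the ABA ratio each way, the 5 highest in WT control, the SNAC-A genes, up to 4 per list, and members nearest the threshold. Neighbouring genes, targets and genes outside that rule were chosen after their values were seen. All 104 members matched the RefSeq table (TAIR10.1), used only for names and gene order. Depth per library is unknown, since reads could not be recovered from the low values. With 1 value per group no p-value was computed. The counting was tested on simulated data. Alternatives were 3-fold, no minimum (genes above 0 in both groups), a minimum of 5 FPKM, pseudocounts of 0.1 and 1 FPKM, and centring on the median of all genes. Python 3.11.15, numpy 2.4.6, pandas 2.3.3 and matplotlib 3.10.9 were used.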

Additional observations from a re-analysis of the deposited data

Results flagged for a closer look

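In 2 of the 67 members that reached 1 FPKM in any group, the ratio of ABA over control had opposite signs in the genotypes. *JUB1* had a log2 ratio of -0.63 in WT and 0.79 in *aph-1*. *ANAC001*, at 5.07 to 5.83 FPKM in all groups, had -0.049 in WT and 0.13 in *aph-1*. Neither reached 2-fold in either genotype, and with 1 value per group the difference between genotypes was not tested.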

How the results depend on the processing

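Counts of members that rose with ABA lay between 22 and 31 in WT and between 20 and 32 in *aph-1*, beside 29 of 66 in each. The number of members compared changed with the minimum. With no minimum 31 of 85 rose in WT and 32 of 84 in *aph-1*. With a minimum of 5 FPKM these were 26 of 44 and 26 of 43. Counts of falls depended on the settings. In WT the 9 became 4 at 3-fold, 16 with no minimum, 2 with a minimum of 5 FPKM and 3 with a pseudocount of 1 FPKM, and in *aph-1* the 8 became 3, 15, 1 and 2 under the same settings. The median log2 ratio with ABA was 0.48 in WT and 0.62 in *aph-1* with no minimum, 1.104 and 1.32 with a minimum of 5 FPKM, and 0.75 and 0.71 with a pseudocount of 1 FPKM. The 2 members lower in untreated *aph-1* became 1, *ANAC019*, at 3-fold, with a minimum of 5 FPKM, with either pseudocount, with centring, and with 1% of WT ABA taken off WT control, and with no minimum 2 members were higher and 3 lower. The 2 members higher in *aph-1* with ABA became 0 at 3-fold, with a minimum of 5 FPKM and with a pseudocount of 1 FPKM, 1 with a pseudocount of 0.1 FPKM and 4 with no minimum, where 3 were lower. The median log2 ratio of the targets was 2.09 with a pseudocount of 1 FPKM. The cause of these changes was not tested beyond the settings themselves. With 1% of WT ABA taken off WT control, the log2 ratio of untreated *aph-1* over WT turned to 4.31 for *SWEET15* and 3.35 for *HAI1*, both lower without it, and to 0.04 for *ANAC032*, which had not reached 2-fold. That step acts on WT control only, so it can move these ratios only up. Under the other settings no count, median or member past 2-fold changed direction. No paired analysis was possible because the table holds 1 value per group, and for the same reason no library could be left out. Low genes are limited by a depth that is unknown.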
